A study of Mus musculus with 6 samples.

Results

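The 10 genes described here brake the cell cycle or sense DNA damage: 7 genes of inhibitors of cyclin-dependent kinases (CDKs), Cdkn1a, Cdkn1b, Cdkn1c, Cdkn2a, Cdkn2b, Cdkn2c and Cdkn2d, and the checkpoint genes Trp53, Atr and Chek1. They were chosen by name, out of 21900 protein-coding genes, and looked up in the authors' list of genes near Bcl6 binding sites, which held 6 of them. Binding of Bcl6 was measured with ChIP-seq, in which DNA bound to an immunoprecipitated protein is sequenced. The cells were cortical progenitors made from the mouse embryonic stem cell line A2 lox.Cre Bcl6. This line carries a tetracycline-inducible Bcl6 transgene. All 6 libraries came from cells at differentiation day 12, after cyclopamine earlier in the protocol and 24 h of Bcl6 induction with 1 µg/ml doxycycline. An antibody to Bcl6 was used for 3 libraries and the other 3 were input DNA. The labels name a single line, and binding of transgenic and of endogenous Bcl6 cannot be told apart, as uninduced cells were not analysed here. Peaks give no expression, so the labelled cell type could not be checked against its markers.

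Bcl6 is a zinc finger transcriptional repressor. In germinal centre B cells it is known to repress Trp53, Atr, Chek1 and Cdkn1a, which lets these cells divide while their DNA is being rearranged and mutated, and at Cdkn1a it is known to act through the partner protein Miz1. CDK inhibitors fall into the Cip/Kip family (Cdkn1a to Cdkn1c), which binds cyclin and CDK complexes, and the INK4 family (Cdkn2a to Cdkn2d), which binds the kinases that partner D-type cyclins. In the developing cortex, Cip/Kip inhibitors and Cdkn2d are known for roles in taking progenitors out of the cell cycle or keeping neurons out of it.

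Positions, tags, scores, folds and distances of peaks are the authors' own for the pooled libraries, and the intervals, medians, shares and sequence counts were computed from these and from RefSeq. No value has a replicate error. The peak caller kept 11718276 of 56836596 ChIP tags (20.6%) and 5048582 of 12808138 input tags (39.4%). Fold enrichment is the ratio of ChIP to local input background, and the score is −10 log10 of the peak's p-value. The weakest score of the 3878 peaks was 50.03.

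Promoter sequence from RefSeq (GRCm38.p6) is shown for 5 of the genes whose start site lay in a peak, and for Cdkn2b, which had no peak, as a contrast. Each run is the 250 bases before the transcription start site (TSS), 5′ to 3′ on the gene's strand. The capitals mark 9 letters with the fewest differences from TTCCTAGAA, a palindrome-like sequence of the kind Bcl6 is known to bind, on either strand. Where several runs tied, only the first in reading order is marked. Cdkn1a and Atr, for example, hold further unmarked runs with as few differences, so the capitals do not single out a site.
Cdkn1a (chr17:29093519-29093768, plus strand): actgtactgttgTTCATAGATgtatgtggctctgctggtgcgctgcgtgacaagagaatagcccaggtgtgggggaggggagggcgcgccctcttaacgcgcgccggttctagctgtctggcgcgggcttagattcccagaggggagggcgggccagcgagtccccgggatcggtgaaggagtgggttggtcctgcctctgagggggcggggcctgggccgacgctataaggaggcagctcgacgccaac
Cdkn1b (chr6:134920151-134920400, plus strand): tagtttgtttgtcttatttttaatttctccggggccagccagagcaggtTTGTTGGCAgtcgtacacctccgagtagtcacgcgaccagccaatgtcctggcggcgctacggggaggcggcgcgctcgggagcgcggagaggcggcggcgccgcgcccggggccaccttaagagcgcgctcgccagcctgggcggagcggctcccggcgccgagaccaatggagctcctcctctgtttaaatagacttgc
Trp53 (chr11:69580109-69580358, plus strand): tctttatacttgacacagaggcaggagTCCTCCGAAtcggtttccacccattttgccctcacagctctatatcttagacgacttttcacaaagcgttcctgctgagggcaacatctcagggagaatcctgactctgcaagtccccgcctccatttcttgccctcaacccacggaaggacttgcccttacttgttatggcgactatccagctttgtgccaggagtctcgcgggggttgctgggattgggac
Atr (chr9:95857347-95857596, plus strand): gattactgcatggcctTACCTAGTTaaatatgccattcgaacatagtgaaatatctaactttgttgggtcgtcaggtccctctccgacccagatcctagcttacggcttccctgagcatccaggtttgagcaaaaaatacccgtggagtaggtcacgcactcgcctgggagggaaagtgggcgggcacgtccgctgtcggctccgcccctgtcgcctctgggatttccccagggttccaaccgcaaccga
Chek1 (chr9:36726659-36726908, minus strand): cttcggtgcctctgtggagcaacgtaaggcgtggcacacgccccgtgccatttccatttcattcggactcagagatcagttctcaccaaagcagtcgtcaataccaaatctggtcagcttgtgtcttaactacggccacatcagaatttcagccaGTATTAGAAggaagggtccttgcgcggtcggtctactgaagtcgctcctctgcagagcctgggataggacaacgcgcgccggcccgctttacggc
Cdkn2b (chr4:89311033-89311282, minus strand): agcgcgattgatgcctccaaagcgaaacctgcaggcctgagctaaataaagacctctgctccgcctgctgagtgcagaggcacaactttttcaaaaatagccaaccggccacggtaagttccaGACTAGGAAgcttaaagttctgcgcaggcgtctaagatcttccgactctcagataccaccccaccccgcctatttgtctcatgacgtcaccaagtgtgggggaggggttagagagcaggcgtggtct

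None of the 12 RefSeq start windows of these genes held such a site. The windows run from 250 bases before to 50 after each TSS, cover 9 of the 10 genes (Cdkn1c has no window in the table), and 6 of them lay in a peak. The looser TTCNNNGAA, whose letters read the same on both strands, was in 0 of 12 windows and in 8.30% of all 32851 windows. TTCCNNGAA, which is a narrower form of it, was in 0 of 12 against 4.81%. TTCCTAGAA, contained in both, was in 0 of 12 against 0.411% (both strands searched). Over windows of genes with a peak within 1 kb of the TSS, the same sequences were in 6.52, 4.41 and 0.278%, in that order. The closest letters in the 250 bases before the TSS differed from TTCCTAGAA at 2 positions for Cdkn1a and Cdkn2d. They differed at 3 for Cdkn1b, Trp53, Atr and Chek1. Those of Cdkn2b, printed as the contrast without a peak, also differed at 2. Searched in the same 250 bases alone, a run with at most 2 differences was found for 49.4% of all windows. For those of genes with a peak within 1 kb it was found in 36.2%. Among the windows of these genes it was in 2 of the 6 in peaks and in 2 of the 6 outside them. These counts describe short windows. Of the peaks, that of Cdkn1b alone had its summit inside the window, and the remaining peak sequence was not analysed here.

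The windows in peaks were rich in CpG dinucleotides, a usual property of promoters of broadly expressed genes. Their CpG counts ran from 10 at Trp53 to 30 at Cdkn1b, with a median of 22, against 13 over the windows of protein-coding genes and 25 over windows of genes with a peak within 1 kb of the TSS. The 6 windows of these genes outside peaks had a median of 15 and ranged from 2 at the upstream start of Cdkn1a to 45 at the upstream start of Cdkn2a, so the groups overlapped. GGGCGG, the core of the GC box bound by Sp1, was in 4 of the 6 windows in peaks and in 4 of the 6 outside them. It was in 35.7% of all windows, 46.2% of those of protein-coding genes and 71.5% of those of genes with a peak within 1 kb of the TSS. CCAAT, the box bound by NF-Y, was in 3 and in 2 of them, against 37.4, 38.2 and 34.7% of the same 3 sets.

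Of the 10 genes, 6 had a peak in the authors' gene list, where 20.1% of protein-coding genes had at least 1. A peak centred within 1 kb of the TSS was listed for 5 of the 10, against a background of 10.8%. By overlap with the RefSeq gene body or 5 kb around it, in place of the list, the same 6 genes had a peak, against 18.8% of protein-coding genes. All 3 checkpoint genes had such a promoter peak. Of the Cip/Kip genes, Cdkn1b had one and Cdkn1c had no peak. Cdkn1a had 5 peaks that were all centred further away, although the nearest was wide enough to cover the listed TSS. Of the 4 INK4 genes, only Cdkn2d had a peak. With 10 genes chosen by name, these shares are a description and no test was made of them.

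**Figure D1:**
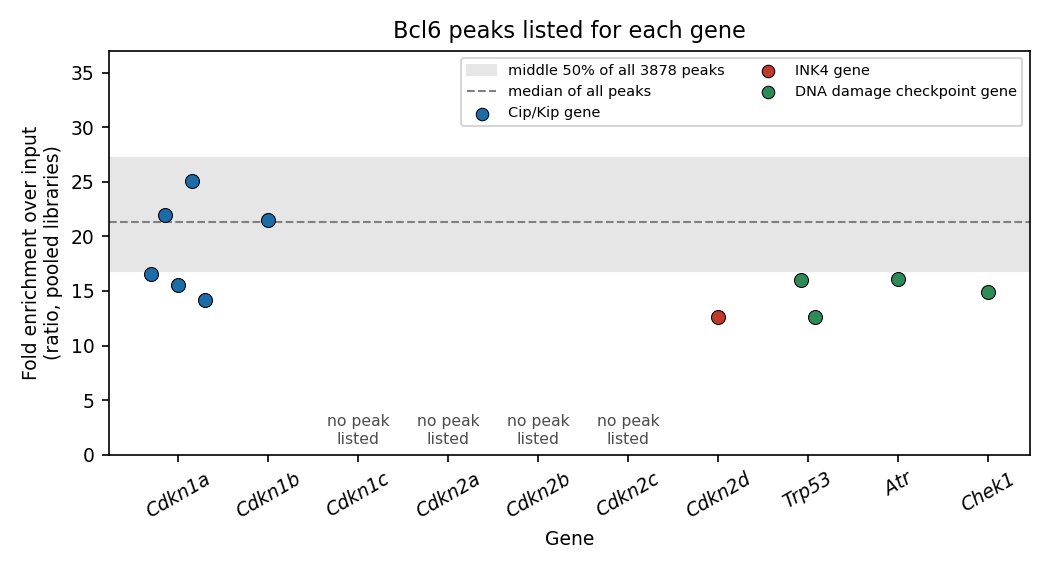
Fold enrichment over input (vertical axis, ratio) of every Bcl6 peak listed for each gene (horizontal axis), 1 point per peak, coloured by gene family, with peaks of 1 gene ordered from upstream to downstream. The grey band and dashed line give the quartiles and the median of all 3878 peaks, and 8 of the 11 points lie below the band.

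The peaks of these genes were mostly of modest enrichment, and the wide ones lay mainly at Cdkn1a and Trp53. Their fold enrichment ran from 12.7 to 25.1, with a median of 16.0, against 21.3 over all peaks. Of the 11 peaks, 8 lay below the lower quartile of all peaks (16.8-fold), and 3 lay above the median (47.4% of all peaks). Widths ran from 1238 to 8393 bp with a median of 2237 bp, against 1405 bp over all peaks. Of the 11 peaks, 7 were over 2 kb wide (22.8% of all peaks). Of these wide peaks, 4 were listed for Cdkn1a, including the pair nearer to Srsf3 described below. The others were both peaks of Trp53 and that of Chek1. The 5 peaks centred within 1 kb of the TSS had a median width of 1587 bp, against 1439 bp over all peaks within 1 kb of a TSS. Over the whole data set the 885 peaks over 2 kb had a median of 17.3-fold, and the 7 such peaks here had 16.0-fold. The 4 narrower peaks had 15.8-fold, against 22.0-fold over the 2993 peaks of that width. The score, which rises with tag number, was above the median of all peaks (71.7) for 9 of the 11.

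**Figure D2:**
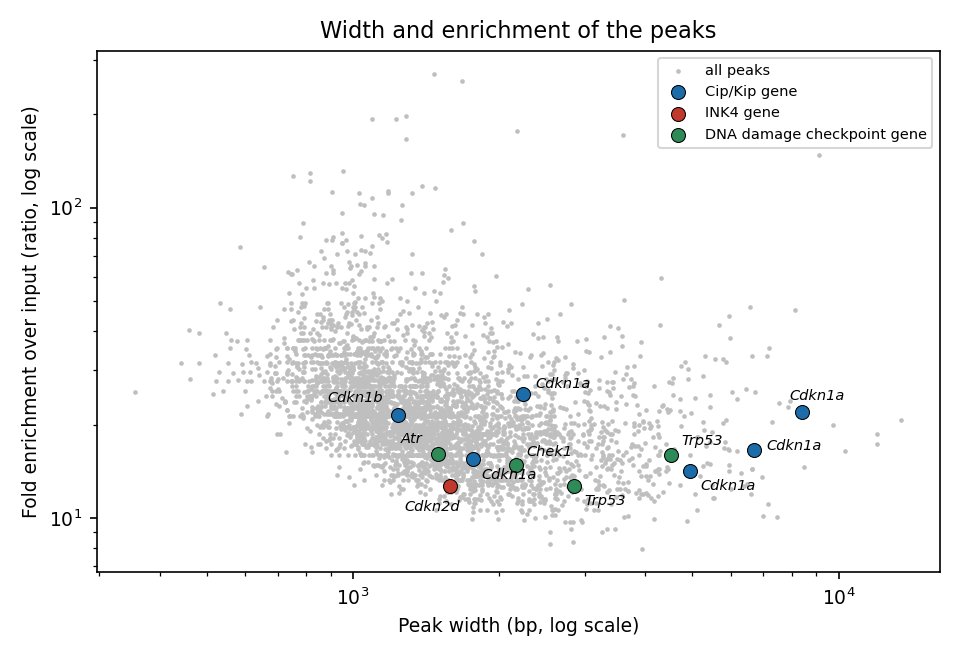
Peak width (horizontal axis, bp, log scale) against fold enrichment (vertical axis, ratio, log scale) for all 3878 peaks (grey) and the 11 peaks of these genes (coloured by family and named). The coloured points lie between 12.7- and 25.1-fold, 10 of the 11 are wider than the median peak and 8 are below the median fold, and the 3 widest belong to Cdkn1a.

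Cdkn1a encodes p21, the CDK inhibitor induced by p53, and had the most peaks and tags of the 10 genes. It was listed for 5 peaks, and 24 protein-coding genes (0.11%) had at least 5. They held 1118 of the 1690 tags in the peaks of these genes (66.2%). Of the 1118 tags, 761 were in the pair of peaks nearer to Srsf3 described below, which leaves 357 in the other 3, beside 332 at Trp53. The peaks lay on chromosome 17 between 29031551 and 29097861, a span of 66.3 kb, and covered 24.0 kb of it.

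Only the most downstream of the 5 touched the gene. It lay from 29092922 to 29097861, a width of 4940 bp, with 194 tags (exact 95% Poisson interval 167.7 to 223.3), a score of 155.7 and 14.2-fold enrichment. Its centre was 1619 bp and its summit 1711 bp downstream of the listed TSS. RefSeq gives 2 start sites for Cdkn1a, and this peak covered the window of the downstream one, printed above, and not that of the upstream one. The authors' list also gave the peak to Rab44, whose TSS was 39.7 kb away.

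The 4 other peaks of Cdkn1a were upstream and were shared in the list with Srsf3, the gene of a splicing factor. The strongest by fold, at 25.1-fold with 104 tags (interval 85.0 to 126.0), was centred 12.4 kb upstream, was 2237 bp wide and lay in no annotated gene. A peak of 15.6-fold and 59 tags was centred 14.9 kb upstream, 538 bp from the former. It overlapped one end of Trp53cor1, known as lincRNA-p21, a non-coding RNA gene induced by p53, which the authors' list does not name and which was chosen here after its position was seen.

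The remaining pair of Cdkn1a peaks lay closer to Srsf3 than to Cdkn1a. A peak 6685 bp wide with 285 tags and 16.6-fold enrichment was centred 2220 bp downstream of the Srsf3 TSS and 58.9 kb upstream of that of Cdkn1a, and its summit lay over the start of Srsf3. The other, 8393 bp wide with 476 tags (interval 434.2 to 520.7) and 21.9-fold enrichment, had a score of 494.3 that only 36 of 3878 peaks exceeded, and 7 peaks were wider. It was centred 47.0 kb upstream of the Cdkn1a TSS, and it ran from the end of Srsf3 into the intergenic space. Its empirical false discovery rate was 5.41%, above the 0.58 to 1.33% of the other 10 peaks. With each peak given only to the nearest listed TSS, both went to Srsf3 and Cdkn1a kept 3.

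**Figure D3:**
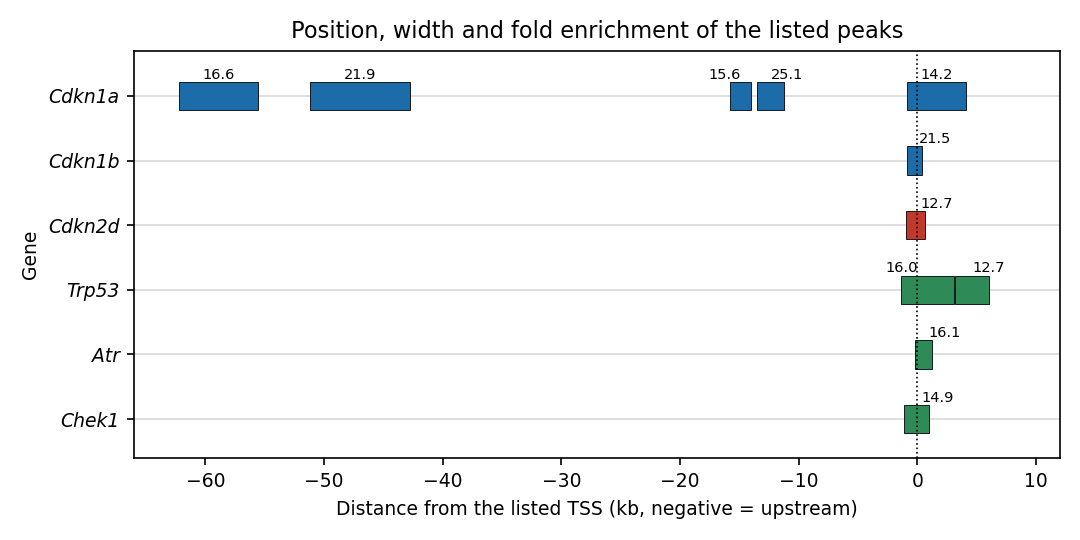
Distance of each peak from the listed TSS of its gene (horizontal axis, kb, negative upstream, dotted line at the TSS) for the 6 genes with a peak. Boxes are drawn to the width of the peak and centred on the listed distance, and the number above each is its fold enrichment. Cdkn1a has 4 boxes far upstream, and the boxes of the other genes lie at the TSS or just downstream.

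Cdkn1b, which encodes the inhibitor p27, had a single narrow promoter peak that the list gave to no other gene. It lay on chromosome 6 from 134919537 to 134920774 and was centred 246 bp upstream of the TSS, with the summit 139 bp upstream, inside the sequence printed above. It held 53 tags (interval 39.7 to 69.3), had a score of 81.0 and reached 21.5-fold, just above the median of all peaks. Of the 5 peaks of these genes centred within 1 kb of the TSS it had the highest fold, and it was the narrowest of all 11 at 1238 bp.

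Cdkn1c, which encodes p57 and is known as an imprinted, maternally expressed gene, had no listed peak. The nearest peak on chromosome 7 was 139 kb from the gene and was listed for Cars, at 17.1-fold.

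Cdkn2d, which encodes the INK4 inhibitor p19-INK4d, had 1 peak, on chromosome 9 from 21290568 to 21292154. It was centred 152 bp upstream of the TSS and held 66 tags (interval 51.0 to 84.0), with a score of 61.2 and 12.7-fold enrichment, exceeded by 94.7% of peaks. The list also gave this peak to Kri1, a ribosome biogenesis gene, 3390 bp upstream of its TSS.

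No peak was listed for the other INK4 genes. Cdkn2a, which encodes p16-INK4a and the p53-stabilising ARF protein, and its neighbour Cdkn2b, which encodes p15, lay 336 kb and 367 kb from the same nearest peak on chromosome 4, of 18.6-fold and listed for Mtap and Ifne. Cdkn2c, which encodes p18, lay 384 kb from the nearest, of 29.6-fold and listed for Dmrta2 and Elavl4. Absence from the list means that no called peak was tied to the gene. No region closer to these genes than the distances given passed the peak caller's cutoff in the pooled libraries. Called peaks held at least 20 tags. Weaker binding would not be seen.

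Trp53, which encodes p53, was covered from its promoter into the gene body by a pair of adjoining peaks on chromosome 11. The first lay from 69578950 to 69583470, was 4521 bp wide and held 225 tags (interval 196.6 to 256.4), with a score of 133.0 and 16.0-fold enrichment. It was centred 851 bp downstream of the TSS, with its summit 1404 bp downstream. The second began 72 bp after the first, from 69583543 to 69586398, with 107 tags (interval 87.7 to 129.3) and 12.7-fold enrichment, centred 4611 bp downstream of the TSS inside the gene. Together they covered 7.38 of 7.45 kb. The first peak also took in the start of Wrap53, the neighbouring gene in the opposite direction, which is known for an antisense transcript that acts on Trp53. The list gave it to Wrap53 at 1886 bp upstream. The second was also listed for Atp1b2, at 20.9 kb. At least 2 peaks were listed for 4.09% of protein-coding genes.

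Atr, which encodes the kinase that senses stalled replication forks, had 1 peak, on chromosome 9 from 95857364 to 95858859. It was centred 514 bp and had its summit 352 bp downstream of the TSS, with 16.1-fold enrichment and a score of 59.3. Its 43 tags (interval 31.1 to 57.9) were the fewest of the 11 peaks, and at 28.7 tags per kb its tag density was exceeded by 97.0% of all peaks. The same peak covered the start of 1700065D16Rik, a gene in the opposite direction whose listed TSS was 209 bp from the peak centre and therefore nearer than that of Atr.

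Chek1, which encodes the kinase CHK1 that ATR activates, had 1 peak that was listed for no other gene, on chromosome 9 from 36725651 to 36727814. It was centred 74 bp upstream of the TSS, the closest of the 11, while its summit lay 396 bp downstream. It was 2164 bp wide and held 78 tags (interval 61.7 to 97.3), with a score of 78.5 and 14.9-fold enrichment. Chek1 and Cdkn1b were the only genes here whose peaks were listed for them alone, and the other 9 peaks were each listed for a second gene.

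The wider pathway was read from 3 lists. Genes upstream and downstream of p53 had a peak in 15 of 30 cases (50.0%, against 20.1% of protein-coding genes), 8 of them within 1 kb of the TSS (26.7%, against 10.8%). Their peaks had a median of 17.9-fold, and 9 of the 15 were over 2 kb wide. With peaks at most 2 kb wide alone, 6 of the 30 had a peak (20.0%, against 16.6% of protein-coding genes), which is near the background. The strongest were at Bax, a pro-apoptotic p53 target (30.6-fold, 127 bp downstream of the TSS), at Pmaip1, which encodes the pro-apoptotic NOXA (28.4-fold, 2700 bp downstream), at Btg2, an antiproliferative p53 target (23.4-fold, 4407 bp downstream), and at Usp7, whose product removes ubiquitin from p53 and Mdm2 (21.3-fold, 628 bp upstream). This order is by fold alone. The Pmaip1 peak held 26 tags and had a score of 52.6, near the weakest score of all peaks, 50.03. Mdm2, the ubiquitin ligase gene that limits p53, had a promoter peak of 12.2-fold and Mdm4 one of 20.7-fold, both named after their values were seen. Wrap53 is in this list through the peak it shares with Trp53.

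Other genes of DNA damage checkpoint signalling had a peak in 9 of 33 cases (27.3%, against 20.1%), 6 of them within 1 kb (18.2%, against 10.8%). Giving each peak to its nearest TSS alone left 5 of the 33 (15.2%, against 14.8%), and only peaks scoring no lower than the median left 4 (12.1%, against 10.8%), both near the background. The median was 18.1-fold. The strongest was at Atrip, the binding partner of ATR, at 37.4-fold and 142 bp upstream of its TSS with 33 tags, against 16.1-fold at Atr itself. Rpa2, which encodes a subunit of the single-strand DNA binding protein RPA, followed at 22.5-fold (161 bp upstream). Nbn, a sensor of double-strand breaks, was at 20.2-fold (328 bp downstream). Rad9a, a subunit of the checkpoint clamp (128 bp downstream), and Pkmyt1, an inhibitory CDK kinase (26.3 kb upstream), were at 18.1-fold each. Atm and Chek2, the kinase pair parallel to Atr and Chek1, had no listed peak, and were named after this was seen.

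Genes that act on the CDK inhibitors or on their expression had a peak in 18 of 28 cases (64.3%, against 20.1%), 9 of them within 1 kb (32.1%, against 10.8%). The median of their 26 peaks was 20.6-fold, and 11 of the 26 exceeded the median of all peaks, as did 47.4% of all peaks. The strongest were at Foxo1, an activator of Cdkn1b (37.2-fold, 115 kb downstream of the TSS), Tbx3, a repressor of the Cdkn2a locus (31.5-fold, 615 kb upstream), Skp1a, a subunit of the ligase that targets p27 for degradation (31.1-fold, 33 bp upstream), and Cbx7, a Polycomb gene that silences Cdkn2a (28.7-fold, 16.3 kb downstream). These distances are those of the peak with the highest fold alone. Tbx3 was listed for 4 peaks, the nearest centred 10 bp from its TSS, and Cbx7 for 3, the nearest 19 bp away. The distal Tbx3 peak held 29 tags and had a score of 59.4. Zbtb17, which encodes the Bcl6 partner Miz1, was listed for an 18.6-fold peak, 22.3 kb past its TSS, and was named after its value was seen.

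**Figure D4:**
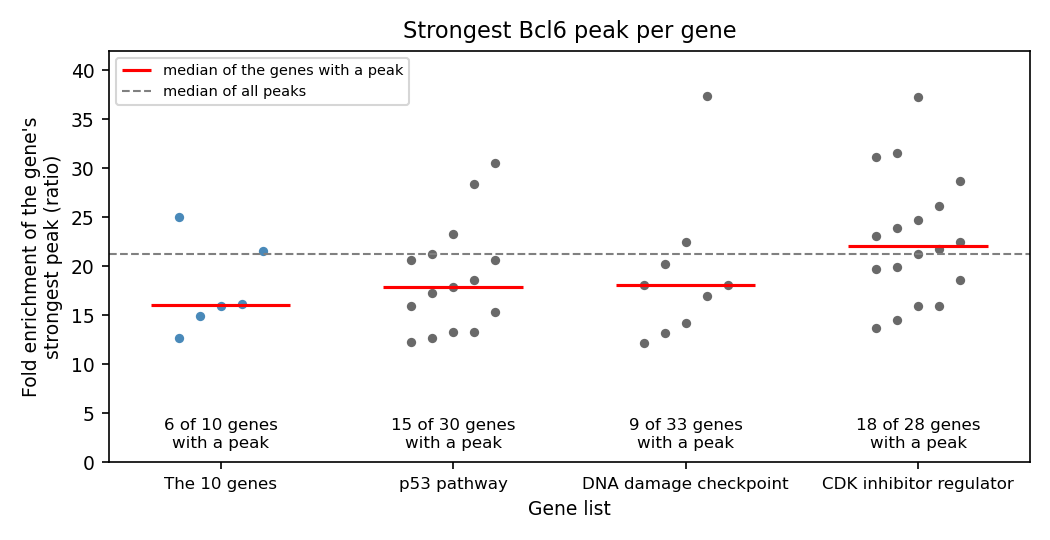
Fold enrichment (vertical axis, ratio) of the strongest peak of each gene, 1 point per gene with a peak, for the 10 genes and the 3 pathway lists (horizontal axis). Red bars are medians of the genes with a peak, the dashed line is the median of all peaks, and the counts give genes with a peak. The medians of the 10 genes, the p53 list and the checkpoint list lie under the dashed line, and that of the CDK inhibitor regulators, at 22.1, lies just above it.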

How the data were processed

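Bcl6 ChIP and input DNA were sequenced in 6 libraries, 3 of each kind, and the series' design states that they were pooled. Bowtie and the mm10 build are named in the submitters' processing notes. Peaks were called with MACS 1.4.2 at a p-value cutoff of 1e-05 and 1 tag per position, per the file headers. The deposited tag counts are pooled ChIP tags per peak. Fold enrichment is a ratio over the local input background, computed by the authors' peak caller. The deposited score is −10 log10 p, whose column name had been overwritten and was read from the column order. The deposited FDR is a percent. GREAT 3.0.0 tied peaks to genes and gave the distance from peak centre to TSS, per the file headers. Its settings were 5000 bp upstream, 1000 bp downstream and an extension of at most 1000000 bp. A listed peak can therefore lie far from its gene.

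The peaks of each gene were found by peak number. For the 11 peaks used here, the TSS placed from centre and distance lay within 3 bp of a RefSeq start (GRCm38.p6, the same build as mm10). Percentiles, list counts and motif searches were computed with Python 3.11.15, pandas 2.3.3 and numpy 2.4.6, and scipy 1.17.1 gave exact 95% Poisson intervals of tag counts, which cover counting error only. Gene symbols were matched to 21900 protein-coding genes by current or unique older symbol. The overlap and motif steps were tested on simulated data.

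The genes and lists were chosen with earlier results of these data known. Genes named are the 10 genes, every other gene listed for their peaks and the 4 strongest of each of the 3 lists. The genes of the peaks nearest to Cdkn1c, Cdkn2a, Cdkn2b and Cdkn2c, and those marked in the text, were named outside this rule, after their values were seen. With pooled libraries there is no replicate error, so no test was made. The alternatives were stricter scores, an FDR of at most 5%, peaks at most 2 kb wide, distances of 5 and 1 kb, the nearest TSS alone, and overlap with the gene body or 5 kb around it in RefSeq.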

Additional observations from a re-analysis of the deposited data

How the results depend on the processing

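Each of 6 values was recomputed under 7 alternatives, most of which keep fewer peaks or pairs by construction. Counts are given with the share of protein-coding genes that kept a peak. Of the 10 genes, a stricter score, no lower than the median of all peaks, left 4 with a peak (without Cdkn2d and Atr, against 10.8% of protein-coding genes), and peaks at most 2 kb wide left 4 (without Trp53 and Chek1, against 16.6%). The nearest TSS alone left 5 (without Atr, against 14.8%), as did peaks within 1 kb (without Cdkn1a, against 10.8%). Genes with a peak within 1 kb went from 5 to 3 with the stricter score and with peaks at most 2 kb wide. The share of protein-coding genes with a peak within 1 kb was not computed under these settings, so this drop has no background beside it. The p53 list went from 15 genes (50.0%) to 9 of 30 (against 10.8%) with the stricter score, to 6 (20.0%, against 16.6%) with peaks at most 2 kb wide and to 8 (26.7%, against 10.8%) within 1 kb. The checkpoint list went from 9 (27.3%) to 4 (12.1%, against 10.8%) with the stricter score and to 5 (15.2%, against 14.8%) with the nearest TSS alone. The CDK inhibitor regulators went from 18 (64.3%) to 10 (35.7%, against 10.8%) with the stricter score and to 9 (32.1%, against 10.8%) within 1 kb. The median fold of the peaks ran from 14.9 to 16.0. Its distribution-free interval of at least 95%, 12.7 to 21.9 over 11 peaks, holds the median of all peaks, 21.3. This interval treats the peaks as separate draws, but 5 belong to Cdkn1a and 2 adjoining ones to Trp53. It therefore gives no error between genes and decides nothing about the difference. No paired analysis was possible because the libraries were pooled before peaks were called, and for the same reason no replicate could be left out. Relative to its size, the smallest tag count, 43 at Atr, has the widest counting interval.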
